A study of Mus musculus with 13 samples.

Results

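Myc and the genes of ribosome biogenesis were followed in mouse enterocytes that lost casein kinase Iα (CKIα), which phosphorylates β-catenin and so starts its degradation. The set is a list of 59 gene symbols, drawn up with earlier results of these data known, that covers Myc with its relatives and partners, RNA polymerase I with its factors, nucleolar and ribosome assembly proteins, and 3 enzymes of polyamine and pyrimidine synthesis. Of these, 57 had a probe set annotated to their symbol alone, among 19938 such genes on the array. Npm3 and Noc2l had none and were not analysed here. The probe set with the highest mean was used for each gene, and all 57 passed the filter on dim genes that left 16721 tested genes.

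The study used Affymetrix expression arrays on enterocytes of mice with a gut-specific CKIα deletion, crossed with p53 or p21 knockout mice. The genetic background is labelled 129/SVJ. The groups were CKIα KO/p53 KO, CKIα KO/p21 KO and CKIα KO, and their counterparts that were heterozygous for the CKIα deletion, CKIα Het/p53 KO, CKIα Het/p21 KO and CKIα Het, with 2 biological replicates in each. The Het mice carry 1 deleted CKIα copy themselves, so there was no group with intact CKIα. The Cre line, the gut segment and the age of the mice are not given in the sources used here. One further array, whose title and genotype label disagree, entered no comparison.

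Myc is a transcription factor that binds DNA as a dimer with Max. Mxd1 and Mxd4 are repressors that compete for Max at the same sites and are typical of differentiating cells. Myc is a direct target of β-catenin in the intestine, where it is active in the dividing crypt cells. Ribosome biogenesis is among the processes best known to follow Myc: RNA polymerase I transcribes the ribosomal RNA precursor in the nucleolus, small nucleolar ribonucleoproteins (snoRNPs) modify it, the small subunit processome and the 60S assembly factors cut, fold and load it with ribosomal proteins, and the polyamine and pyrimidine enzymes serve the growing cell. p53 is a tumour suppressor that halts division and is itself stabilised when ribosome assembly is disturbed, and p21 (Cdkn1a) is the cell cycle inhibitor it induces.

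The preferred DNA sequence of Myc-Max and Mxd-Max dimers, CACGTG, reads the same on both strands. A RefSeq promoter window was matched for 50 of the 59 members, and the 250 bases before each gene start were searched. The motif stood in 3 of these 50 genes (6.0%), against 6.86% of all 27025 genes with a window and 7.61% of 17492 protein-coding genes, so its share among the members was close to that of genes at large. The 3 windows are shown because they hold a motif directly upstream of members described below: Nop2, a methyltransferase of 60S assembly, Rrn3, the factor that recruits RNA polymerase I, and Mxd4. They are the 250 bases before the start on the coding strand in GRCm38.p6, at chr6:125131633-125131882 (plus strand) for Nop2, chr16:13780449-13780698 (plus strand) for Rrn3 and chr5:34187711-34187960 (minus strand) for Mxd4. Capitals mark CACGTG, which begins 60 bases before the start of Nop2, 215 and 48 bases before that of Rrn3 and 219 bases before that of Mxd4.
Nop2: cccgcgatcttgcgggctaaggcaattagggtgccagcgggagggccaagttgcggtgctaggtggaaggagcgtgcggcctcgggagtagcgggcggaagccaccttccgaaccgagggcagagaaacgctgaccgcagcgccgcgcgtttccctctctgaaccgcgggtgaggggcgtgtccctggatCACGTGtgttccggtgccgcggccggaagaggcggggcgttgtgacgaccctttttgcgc
Rrn3: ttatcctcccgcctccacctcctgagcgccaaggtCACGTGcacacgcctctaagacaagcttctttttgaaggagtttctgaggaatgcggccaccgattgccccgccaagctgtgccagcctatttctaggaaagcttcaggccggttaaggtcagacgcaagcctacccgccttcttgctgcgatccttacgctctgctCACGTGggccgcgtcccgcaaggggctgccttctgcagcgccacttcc
Mxd4: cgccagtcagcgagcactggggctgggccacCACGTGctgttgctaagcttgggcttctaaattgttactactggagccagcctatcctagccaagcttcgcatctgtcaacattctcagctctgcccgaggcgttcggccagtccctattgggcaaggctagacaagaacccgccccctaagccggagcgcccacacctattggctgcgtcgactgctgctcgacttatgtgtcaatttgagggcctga
A match is a description of these letters and not a binding site, and the windows do not cover introns, where sites of Ncl and Odc1 are known.

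The arrays had medians between 4.96 and 5.12 on the log2 scale. None of the 12 measured markers of absorptive enterocytes stayed within the lowest 25% of probe sets on all arrays. The same held for the measured markers of every other listed cell type, so this does not set enterocytes apart. The summed intensity of the enterocyte markers was 43130 to 73180 on the arrays of CKIα-deleted mice and 69650 to 87570 on the Het arrays. Replicates were unequally close: the pooled SD of the members was 0.15 in CKIα KO/p53 KO, 0.52 in CKIα KO/p21 KO and 0.34 in CKIα KO, against 0.20 in CKIα Het/p53 KO, 0.35 in CKIα Het/p21 KO and 0.14 in CKIα Het (log2, n = 2 arrays each). The replicate number marked a second difference in every group. Xist, which is expressed from the inactive X chromosome, lay between 3.15 and 3.94 on all arrays numbered 1 and between 8.91 and 10.1 on all arrays numbered 2, while the Y-linked genes Eif2s3y, Kdm5d and Uty ran the other way. Each comparison between groups holds 1 array of either kind per group, so values within each replicate number are given beside the main ones. In bulk arrays, fewer cells of a type and less RNA per cell cannot be told apart.

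Loss of CKIα went with higher levels of nearly the whole set where p53 or p21 was also missing, and with a smaller difference where both were present. Relative to the mean of the 6 Het arrays, the median of the 57 members was 1.31 and 1.33 (log2) on the CKIα KO/p53 KO arrays, 0.85 and 1.50 on the CKIα KO/p21 KO arrays and 0.22 and 0.54 on the CKIα KO arrays. On single Het arrays it was -0.12 and 0.01 in CKIα Het/p53 KO, 0.25 and -0.14 in CKIα Het/p21 KO, and -0.05 and 0.02 in CKIα Het. The median of all tested genes stayed between -0.05 and 0.03 on these 12 arrays. Every array of a double knockout therefore lay above every Het array, while the lower CKIα KO array fell just below the highest Het array, CKIα Het/p21 KO replicate 1.

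**Figure D1:**
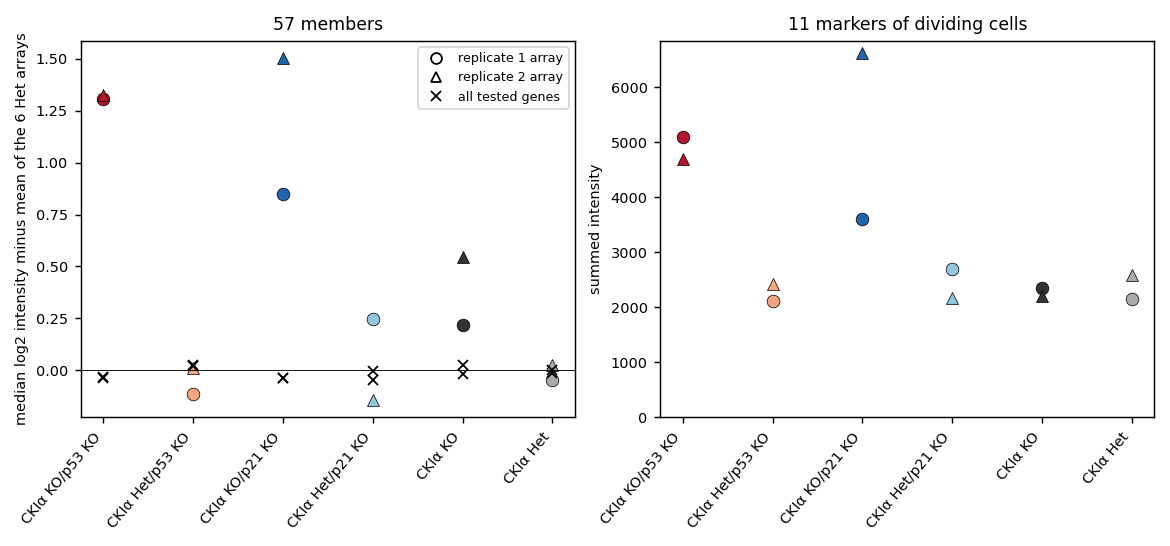
Left, the median log2 intensity of the 57 members on each array, relative to the mean of the 6 Het arrays; right, the summed linear intensity of 11 markers of dividing cells on the same arrays. The members' medians run from 0.85 to 1.50 on double knockout arrays and are 0.22 and 0.54 on CKIα KO arrays. The median of CKIα KO replicate 1, 0.22, lies within the range of the Het arrays. The dividing-cell sums of both CKIα KO arrays, 2204 to 2353, do so as well.

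Averaged over the 3 genetic backgrounds (p53 missing, p21 missing, both present), 51 of the 57 members were called higher and 2 lower in CKIα-deleted enterocytes, against 15.5% higher and 8.96% lower among all tested genes. Here and below, a called gene is one whose limma p-value, adjusted by Benjamini and Hochberg over the 16721 tested genes, was under 0.05. Where genes are said below to have risen or fallen in a background or on average, they were called higher or lower there. The median effect over the members was 0.96 (log2), beside -0.03 over all tested genes. Of all called genes 63.3% were higher, and 51.8% after a further quantile normalization. The 4 members not called were Mycn, Mxd4, Ubtf and Odc1. With any 1 of the 12 arrays left out, between 49 and 53 of these 53 calls were kept.

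Without p53, 46 of the 57 members were called higher and 2 lower in CKIα KO/p53 KO against CKIα Het/p53 KO. Of all tested genes, 11% were called higher and 6.82% lower. The members' median was 1.37 (log2), beside -0.06 over all tested genes. Of all called genes, 61.8% were higher, and 50.7% after quantile normalization. Both CKIα KO/p53 KO arrays stood above both CKIα Het/p53 KO arrays for 52 members, a pattern shown by 28.9% of all tested genes. Within replicate numbers 1 and 2 the members' median was 1.37 and 1.29. The count depended on single arrays: without CKIα Het/p53 KO replicate 1 no member was called higher (0.0598% of all tested genes), without CKIα KO/p53 KO replicate 2 there were 6 (0.963%), and without CKIα Het/p53 KO replicate 2 there were 25 (2.4%).

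Without p21, 25 members were called higher and none lower in CKIα KO/p21 KO against CKIα Het/p21 KO. Of all tested genes, 1.46% were called higher. The median over the members was 1.11 (log2), beside -0.01 over all tested genes. An unadjusted limma p under 0.05 was found for 51 of 57 members, and for 3881 of all 16721 tested genes. Of all called genes, 73.9% were higher, and 63.6% after quantile normalization. Both CKIα KO/p21 KO arrays lay above both CKIα Het/p21 KO arrays for 50 members, and for 26.9% of all tested genes. Within replicate number 1 the members' median was 0.59 and within number 2 it was 1.67. The adjusted p-values of the 25 calls lay close to the threshold, between 0.0253 (Pvt1) and 0.0492 (Gar1 and Utp4). Calls were lost under other settings: 3 members were called higher after centring each array (0.425% of all tested genes), 7 with array weights (0.538%), 9 with no filter on dim genes (0.632%) and 16 after quantile normalization (0.855%). The count was 49 without CKIα KO/p21 KO replicate 1 (10.1% of all tested genes), 1 without either CKIα KO/p53 KO array (0.138%), and 0 without CKIα KO/p21 KO replicate 2 or without any 1 array of CKIα Het/p53 KO, CKIα Het/p21 KO or CKIα Het.

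With p53 and p21 present, no member passed the test in CKIα KO against CKIα Het by limma, where 0.0239% of all tested genes did. Among the members, 13 of 57 had an unadjusted p under 0.05, against 1520 of 16721 genes. The median was 0.37 (log2), beside 0.02 over all tested genes, and 51 members lay above 0, as did 53.9% of all tested genes. Both CKIα KO arrays were above both CKIα Het arrays for 36 members, and for 22.3% of all tested genes. Within replicate number 1 the median was 0.26, and within number 2 it was 0.48. The member nearest to a call was Rrp12, at 0.84 (SE 0.20, adjusted p = 0.207, limma).

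**Figure D2:**
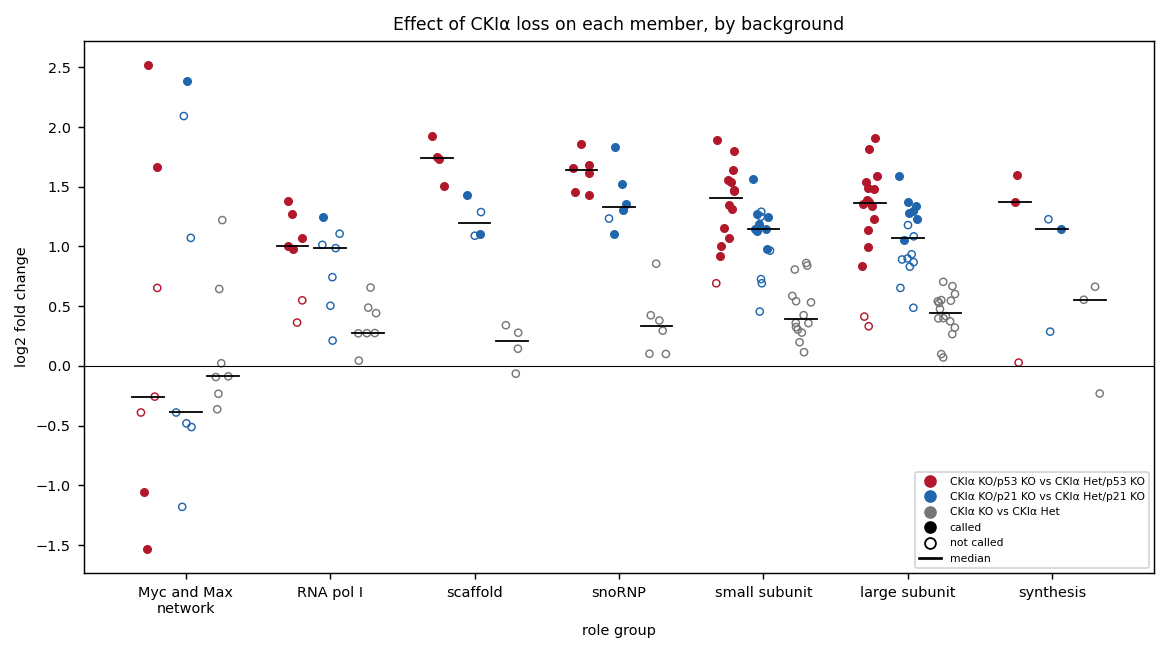
Log2 fold change of CKIα deletion against CKIα heterozygosity for each of the 57 measured members (points), in role groups, with p53 missing, p21 missing and both present, with filled points for called members and a line for each median. The medians over the members are 1.37 and 1.11 in the backgrounds without p53 and p21 and 0.37 with both genes present.

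Within the Myc family and Max network, Myc and Mycl were called higher and Max and Mxd1 lower where p53 was missing. Pvt1 was called higher where p21 was missing. Without p21, Myc, Mycl, Max and Mxd1 changed in the same directions as without p53 but missed the threshold. Myc measured 9.22 and 9.44 on the CKIα KO/p53 KO arrays, 8.76 and 9.79 on the CKIα KO/p21 KO arrays and 6.86 and 8.90 on the CKIα KO arrays, against 6.79 and 6.83 on the CKIα Het/p53 KO arrays, 7.54 and 6.84 on the CKIα Het/p21 KO arrays and 7.30 and 7.18 on the CKIα Het arrays. All 4 double knockout arrays were above all Het arrays, whereas the CKIα KO arrays were split, with 1 below its Het counterparts and 1 near the double knockouts. The log2 fold change was 2.52 without p53 (SE 0.55, 5.74-fold, adjusted p = 0.0171 in limma), 2.09 without p21 (SE 0.55, adjusted p = 0.0716) and 0.64 with both genes present (SE 0.55, adjusted p = 0.814). Within replicate numbers 1 and 2 it was 2.43 and 2.61 without p53, 1.23 and 2.96 without p21, and -0.44 and 1.73 with both present. Averaged over the backgrounds, Myc rose by 1.75 (SE 0.32, 3.37-fold, adjusted p = 0.00534). The call without p53 was lost when any 1 of its 4 arrays was left out, at 2.41 to 2.63 and adjusted p-values of 0.0569 to 0.0876. Without p21, Myc passed when CKIα KO/p21 KO replicate 1 (2.61, adjusted p = 0.0221) or either CKIα KO array (adjusted p = 0.0334) was left out.

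Mycl, the family member first found in lung cancer, followed Myc in CKIα KO/p53 KO most clearly. It measured 7.62 and 7.54 in CKIα KO/p53 KO, 6.26 and 7.55 in CKIα KO/p21 KO and 5.73 and 6.25 in CKIα KO, against 6.09 and 5.74 in CKIα Het/p53 KO, 5.95 and 5.73 in CKIα Het/p21 KO and 5.82 and 6.12 in CKIα Het. In CKIα KO/p53 KO it was up 3.17-fold against CKIα Het/p53 KO (log2 1.66, SE 0.35, adjusted p = 0.0153 in limma), a call lost without any 1 of these 4 arrays (adjusted p = 0.0619 to 0.0859). Without p21 the difference of 1.07 (SE 0.35, adjusted p = 0.113) rested on replicate 2, with 0.31 within number 1 and 1.83 within number 2. With both genes present it was 0.02, and below 0 after quantile normalization (-0.05) or centring each array on its median (-0.02). Mycn, which is best known from neural tissue, was dim at 4.12 to 4.96 over the 12 arrays. It was not called in any of the 3 backgrounds, with changes of -0.39 without p53 (adjusted p = 0.181), -0.39 without p21 (adjusted p = 0.26) and -0.09 with both present (adjusted p = 0.944).

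Pvt1, a long noncoding RNA gene next to Myc on chromosome 15, had a different order among the genotypes. It measured 4.42 and 4.76 in CKIα KO/p53 KO, 6.29 and 7.05 in CKIα KO/p21 KO and 4.61 and 5.70 in CKIα KO, against 4.05 and 3.83 in CKIα Het/p53 KO, 4.34 and 4.22 in CKIα Het/p21 KO and 3.84 and 4.02 in CKIα Het. The 2 CKIα KO/p21 KO arrays were the highest, and all 6 CKIα-deleted arrays exceeded all 6 Het arrays. In CKIα KO/p21 KO it rose by 2.39 (SE 0.34, 5.24-fold, adjusted p = 0.0253 in limma), the largest log2 fold change among the members called there. That call was lost, at adjusted p-values of 0.0536 to 0.184, without CKIα KO/p21 KO replicate 2 or without any 1 Het array. The differences of 0.65 without p53 (SE 0.34, adjusted p = 0.196) and of 1.22 with both genes present (SE 0.34, adjusted p = 0.285) were not called. Pvt1 was lower in CKIα KO/p53 KO than in CKIα KO/p21 KO by 2.08 on the log2 scale (SE 0.34, 4.22-fold, adjusted p = 0.039). A second Pvt1 probe set had a mean of 2.69, under the 25th percentile of every array (3.59 to 3.73). Its changes lay between -0.06 and 0.11 in the same 3 backgrounds, but it was too dim to bear on the first. The Pvt1 result thus rests on 1 probe set, which was itself dim on the Het arrays, at 3.83 to 4.34.

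Max and Mxd1 were the members called lower. Max, the shared partner, measured 9.68 and 9.36 in CKIα KO/p53 KO, 10.53 and 9.63 in CKIα KO/p21 KO and 10.31 and 10.29 in CKIα KO, against 10.48 and 10.66 in CKIα Het/p53 KO, 10.31 and 10.82 in CKIα Het/p21 KO and 10.54 and 10.79 in CKIα Het. It fell by 1.05 in CKIα KO/p53 KO against CKIα Het/p53 KO (SE 0.28, adjusted p = 0.0302 in limma), and both CKIα KO/p53 KO arrays were below every Het array, but no call was left without any 1 of these 4 arrays (adjusted p = 0.0645 to 0.15). Its values overlapped with p21 missing (-0.48, adjusted p = 0.341). On average over the backgrounds Max fell by 0.63 (SE 0.16, adjusted p = 0.0188). That average call was lost, at adjusted p-values of 0.0516 to 0.0564, when CKIα KO/p53 KO replicate 2, CKIα Het/p53 KO replicate 2, CKIα Het/p21 KO replicate 2 or CKIα Het replicate 2 was left out.

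Mxd1, a repressor that rises as epithelial cells differentiate, measured 9.43 and 9.23 in CKIα KO/p53 KO, 10.58 and 9.65 in CKIα KO/p21 KO and 10.76 and 10.41 in CKIα KO, against 10.92 and 10.80 in CKIα Het/p53 KO, 11.16 and 11.43 in CKIα Het/p21 KO and 10.62 and 11.01 in CKIα Het. The CKIα KO/p53 KO arrays were the lowest, and CKIα KO/p21 KO replicate 2 came next. Mxd1 fell by 1.53 without p53 (SE 0.28, 2.90-fold, adjusted p = 0.01 in limma) and by 0.98 on average over the backgrounds (SE 0.16, 1.98-fold, adjusted p = 0.00364). The call without p53 was lost without CKIα KO/p53 KO replicate 2 (adjusted p = 0.0638) or CKIα Het/p53 KO replicate 1 (adjusted p = 0.069). Without p21 the change of -1.18 missed the threshold (SE 0.28, adjusted p = 0.0586), and with both genes present it was -0.23 (adjusted p = 0.879). Mxd4, a relative of Mxd1 whose promoter window is printed above, measured 7.09 and 7.28 in CKIα KO/p53 KO, 7.58 and 6.85 in CKIα KO/p21 KO and 7.52 and 7.75 in CKIα KO, against 7.52 and 7.36 in CKIα Het/p53 KO, 7.74 and 7.72 in CKIα Het/p21 KO and 7.75 and 7.70 in CKIα Het. Its changes were -0.26, -0.51 and -0.09 without p53, without p21 and with both present, and none was called.

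**Figure D3:**
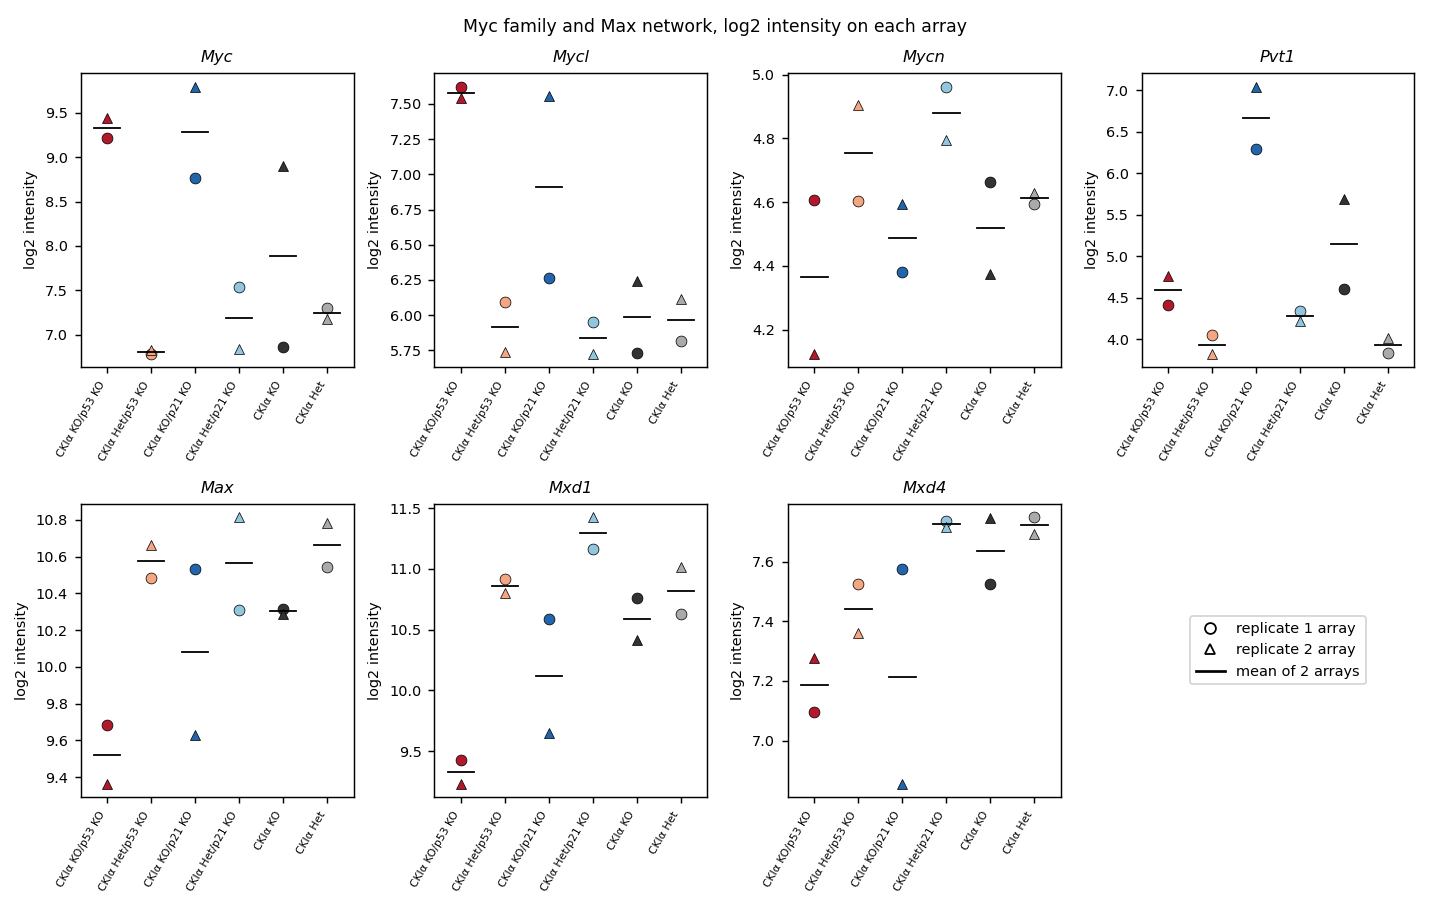
Log2 intensity of the 7 members of the Myc family and Max network on each of the 12 arrays, by genotype group, with the group mean as a bar. Myc lies at 8.76 to 9.79 on the double knockout arrays, and Mxd1 is lowest on the CKIα KO/p53 KO arrays. Max is below all Het arrays on the CKIα KO/p53 KO arrays, on CKIα KO/p21 KO replicate 2 and, narrowly, on CKIα KO replicate 2.

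Of the 7 members of the RNA polymerase I group, 5 rose without p53, 1 without p21 and 6 on average. Polr1a, the largest subunit of RNA polymerase I, measured 7.73 and 7.71 in CKIα KO/p53 KO, 7.23 and 7.99 in CKIα KO/p21 KO and 6.78 and 6.98 in CKIα KO, against 6.16 and 6.51 in CKIα Het/p53 KO, 6.60 and 6.13 in CKIα Het/p21 KO and 6.38 and 6.50 in CKIα Het. All 6 CKIα-deleted arrays lay above all 6 Het arrays. Polr1a was 2.61-fold higher without p53 (log2 1.38, SE 0.25, adjusted p = 0.01 in limma) and 2.37-fold higher without p21 (log2 1.24, SE 0.25, adjusted p = 0.0471). With both genes present the change was 0.44 (adjusted p = 0.663).

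Rrn3, whose promoter window holds the motif 48 and 215 bases before the start, connects RNA polymerase I to the ribosomal RNA promoter. It measured 8.88 and 8.95 in CKIα KO/p53 KO, 8.26 and 8.95 in CKIα KO/p21 KO and 7.97 and 8.52 in CKIα KO, against 8.0 and 7.88 in CKIα Het/p53 KO, 7.84 and 7.40 in CKIα Het/p21 KO and 7.58 and 7.60 in CKIα Het, which put CKIα KO replicate 1 just below CKIα Het/p53 KO replicate 1. It rose by 0.98 without p53 (adjusted p = 0.0272 in limma), and changed by 0.99 without p21 (adjusted p = 0.0664) and 0.66 with both present (adjusted p = 0.452). Polr1e, a subunit of the same polymerase, measured 6.71 and 6.63 in CKIα KO/p53 KO, 6.32 and 6.90 in CKIα KO/p21 KO and 5.65 and 5.92 in CKIα KO, against 5.63 and 5.58 in CKIα Het/p53 KO, 5.98 and 5.21 in CKIα Het/p21 KO and 5.49 and 5.53 in CKIα Het. It rose by 1.07 without p53 (adjusted p = 0.0213), with all 4 double knockout arrays above all Het arrays. Polr1b (1.28, adjusted p = 0.0255) and Tcof1 (1.00, adjusted p = 0.0257), the treacle protein of the nucleolus, rose without p53 as well, whereas Polr1c (0.55, adjusted p = 0.127) did not pass. Ubtf, which shapes the chromatin of the ribosomal RNA genes, had the smallest changes of the group at 0.36, 0.21 and 0.04 without p53, without p21 and with both present.

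The 4 measured nucleolar scaffold and chaperone proteins all rose without p53, and 2 of them, Npm1 and Nolc1, without p21. Npm1 (nucleophosmin), an abundant nucleolar chaperone that also binds the tumour suppressor Arf, measured 10.07 and 10.11 in CKIα KO/p53 KO, 9.90 and 10.18 in CKIα KO/p21 KO and 8.63 and 9.37 in CKIα KO, against 8.10 and 8.23 in CKIα Het/p53 KO, 8.97 and 8.89 in CKIα Het/p21 KO and 8.74 and 8.96 in CKIα Het. The 4 double knockout arrays stood apart at the top, and the CKIα Het/p53 KO arrays were the lowest. Npm1 was 3.79-fold higher in CKIα KO/p53 KO than in CKIα Het/p53 KO (log2 1.92, SE 0.22, adjusted p = 0.00507 in limma) and 2.15-fold higher without p21 (log2 1.10, SE 0.22, adjusted p = 0.0466). With both genes present the change was 0.14 (adjusted p = 0.916).

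Ncl (nucleolin), which binds the ribosomal RNA precursor, measured 10.32 and 10.62 in CKIα KO/p53 KO, 9.82 and 10.42 in CKIα KO/p21 KO and 8.63 and 9.34 in CKIα KO, against 8.61 and 8.88 in CKIα Het/p53 KO, 9.19 and 8.88 in CKIα Het/p21 KO and 8.99 and 9.11 in CKIα Het. It was 3.32-fold higher without p53 (log2 1.73, SE 0.27, adjusted p = 0.00772 in limma), while the changes of 1.09 without p21 (adjusted p = 0.0628) and -0.06 with both genes present (adjusted p = 0.978) were not called. Between CKIα-deleted mice, Ncl was the member that passed the test in CKIα KO/p53 KO against CKIα KO, at 1.49 (SE 0.27, 2.80-fold, adjusted p = 0.0462), where 0.466% of all tested genes were called higher. That call was lost without either CKIα KO/p53 KO array, without CKIα KO replicate 1 and without any 1 Het array, with no member called in each case. With CKIα KO replicate 2 left out, 5 members were called higher (1.02% of all tested genes), and with either CKIα KO/p21 KO array left out there were 34 (5.44%). With the replicate number, which coincides with the Xist difference, as a block, 8 members were called higher, Ncl among them, beside 1.3% of all tested genes.

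Nolc1, a nucleolar phosphoprotein that chaperones snoRNPs, measured 8.42 and 8.26 in CKIα KO/p53 KO, 7.94 and 8.73 in CKIα KO/p21 KO and 7.09 and 7.65 in CKIα KO, against 6.69 and 6.98 in CKIα Het/p53 KO, 7.25 and 6.57 in CKIα Het/p21 KO and 6.89 and 7.17 in CKIα Het. Gnl3 (nucleostemin), a GTP-binding protein of dividing stem cells, measured 8.58 and 9.02 in CKIα KO/p53 KO, 8.09 and 8.82 in CKIα KO/p21 KO and 7.21 and 7.60 in CKIα KO, against 6.95 and 7.15 in CKIα Het/p53 KO, 7.50 and 6.83 in CKIα Het/p21 KO and 6.96 and 7.28 in CKIα Het. For both genes the 4 double knockout arrays were above all other arrays. They were 2.84-fold (Nolc1, adjusted p = 0.0133) and 3.36-fold (Gnl3, adjusted p = 0.00858) higher without p53 by limma. Without p21 the fold changes were 2.69 for Nolc1 (adjusted p = 0.0488) and 2.44 for Gnl3 (adjusted p = 0.055).

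All 6 snoRNP proteins rose without p53, and 5 of them without p21, with Nop56 missing the threshold there (log2 1.23, adjusted p = 0.0558 in limma). Fbl (fibrillarin), the methyltransferase of box C/D snoRNPs, measured 8.06 and 7.95 in CKIα KO/p53 KO, 7.66 and 8.24 in CKIα KO/p21 KO and 6.99 and 7.49 in CKIα KO, against 6.44 and 6.66 in CKIα Het/p53 KO, 7.02 and 6.67 in CKIα Het/p21 KO and 6.79 and 6.85 in CKIα Het. Nop58, a core protein of the same particles, measured 9.45 and 9.60 in CKIα KO/p53 KO, 8.92 and 9.70 in CKIα KO/p21 KO and 8.04 and 8.42 in CKIα KO, against 7.95 and 7.88 in CKIα Het/p53 KO, 8.12 and 7.46 in CKIα Het/p21 KO and 7.82 and 8.05 in CKIα Het. Nhp2, a core protein of the box H/ACA particles that make pseudouridine, measured 8.79 and 8.78 in CKIα KO/p53 KO, 8.11 and 9.05 in CKIα KO/p21 KO and 7.16 and 8.01 in CKIα KO, against 6.79 and 7.06 in CKIα Het/p53 KO, 7.15 and 6.33 in CKIα Het/p21 KO and 6.76 and 6.70 in CKIα Het. Nhp2 was the widest ranging of the 3, and all 6 of its CKIα-deleted values exceeded the 6 Het values, narrowly for CKIα KO replicate 1.

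In CKIα KO/p53 KO, Nhp2 was 3.63-fold (adjusted p = 0.0122), Nop58 3.06-fold (adjusted p = 0.00882) and Fbl 2.74-fold (adjusted p = 0.00772) above CKIα Het/p53 KO by limma. The corresponding folds without p21 were 3.57 (adjusted p = 0.0466), 2.87 (adjusted p = 0.0434) and 2.15 (adjusted p = 0.0481). With p53 and p21 present, the log2 changes were 0.86 for Nhp2, 0.30 for Nop58 and 0.42 for Fbl, and none was called. A second Fbl probe set, with a mean of 6.84, gave log2 changes of 0.87 without p53, 0.91 without p21 and 0.225 with both present. The Fbl probe set used gave 1.45, 1.10 and 0.42. Dkc1, the pseudouridine synthase dyskerin, rose by 1.68 without p53 and 1.31 without p21, and Gar1, its particle partner, by 1.43 and 1.35. With both genes present these 2 changed by 0.10 each.

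Among the 14 proteins of the small subunit processome and 40S maturation, 13 rose without p53, 8 without p21 and all 14 on average. Utp20, a very large scaffold protein of the processome, measured 7.53 and 7.56 in CKIα KO/p53 KO, 7.62 and 8.28 in CKIα KO/p21 KO and 6.92 and 7.02 in CKIα KO, against 6.13 and 6.04 in CKIα Het/p53 KO, 6.68 and 6.09 in CKIα Het/p21 KO and 6.03 and 6.29 in CKIα Het. Ddx21, an RNA helicase of the nucleolus, measured 9.62 and 9.89 in CKIα KO/p53 KO, 8.95 and 9.77 in CKIα KO/p21 KO and 8.54 and 8.87 in CKIα KO, against 7.84 and 7.88 in CKIα Het/p53 KO, 8.28 and 7.94 in CKIα Het/p21 KO and 7.74 and 7.95 in CKIα Het. Rrp12, which acts in the export and maturation of both subunits, measured 7.23 and 7.50 in CKIα KO/p53 KO, 7.09 and 7.54 in CKIα KO/p21 KO and 7.0 and 7.05 in CKIα KO, against 6.10 and 6.48 in CKIα Het/p53 KO, 6.47 and 6.19 in CKIα Het/p21 KO and 6.19 and 6.18 in CKIα Het. For these 3 genes all 6 CKIα-deleted arrays were above all 6 Het arrays, the CKIα KO arrays included.

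Ddx21 was 3.71-fold (adjusted p = 0.00659), Utp20 2.75-fold (adjusted p = 0.00803) and Rrp12 2.10-fold (adjusted p = 0.0101) higher without p53 by limma. Without p21 they were 2.38-fold (adjusted p = 0.0478), 2.95-fold (adjusted p = 0.031) and 1.98-fold (adjusted p = 0.0466) higher. With both genes present the log2 changes were 0.86, 0.81 and 0.84, among the largest of the set, at adjusted p-values of 0.309, 0.313 and 0.207. Heatr1, Tsr1, Noc4l, Utp4 and Nat10 rose in both backgrounds that lacked a gene. Nop14, Wdr43, Utp15, Nob1 and Ddx10 rose without p53 and missed the threshold without p21, with log2 changes there from 0.69 (Nob1) to 1.29 (Utp15). Rrp9, a protein of the U3 snoRNP, was the 1 of the 14 not called without p53 (0.69, adjusted p = 0.0594).

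In 60S assembly, 14 of 16 measured members rose without p53, 7 without p21 and all 16 on average. Nop2, whose promoter window holds the motif 60 bases before the start, measured 8.40 and 8.14 in CKIα KO/p53 KO, 7.87 and 8.38 in CKIα KO/p21 KO and 7.46 and 7.67 in CKIα KO, against 6.99 and 7.10 in CKIα Het/p53 KO, 7.27 and 6.87 in CKIα Het/p21 KO and 6.98 and 7.05 in CKIα Het. Nop16, a nucleolar protein of early 60S particles, measured 8.19 and 8.42 in CKIα KO/p53 KO, 7.87 and 8.48 in CKIα KO/p21 KO and 7.59 and 7.69 in CKIα KO, against 6.87 and 7.03 in CKIα Het/p53 KO, 7.17 and 6.61 in CKIα Het/p21 KO and 6.95 and 7.24 in CKIα Het. Ftsj3, a methyltransferase of the ribosomal RNA precursor, measured 8.82 and 8.97 in CKIα KO/p53 KO, 8.24 and 9.07 in CKIα KO/p21 KO and 7.70 and 7.81 in CKIα KO, against 6.79 and 7.37 in CKIα Het/p53 KO, 7.44 and 6.69 in CKIα Het/p21 KO and 7.19 and 7.27 in CKIα Het. For all 3 genes, both CKIα KO arrays lay between the double knockout arrays and the Het arrays, with no overlap on either side.

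Without p53 the fold changes were 2.34 for Nop2 (adjusted p = 0.00803), 2.56 for Nop16 (adjusted p = 0.00954) and 3.52 for Ftsj3 (adjusted p = 0.00858) by limma. Without p21 they were 2.07 (adjusted p = 0.0447), 2.43 (adjusted p = 0.0434) and 3.00 (adjusted p = 0.0459). Wdr12, a subunit of the PeBoW complex, rose by 1.37 and 1.30 in the 2 backgrounds, but its partners differed: Pes1 rose without p53 (1.48, adjusted p = 0.0145) and missed the threshold without p21 (1.08, adjusted p = 0.0822), and Bop1 was called in neither (0.33 and 0.49). Rrp1b, Brix1 and Noc3l were called in both. Rrs1 (1.90), Mrto4 (1.54), Grwd1 (1.39), Wdr74 (1.34), Ddx18 (1.14) and Ddx56 (0.83) rose without p53, with log2 changes of 0.83 to 1.18 without p21 that were not called. Nle1, like Bop1, was not called without p53 (0.41, adjusted p = 0.186). Second probe sets without p53 gave log2 changes of 1.91 for Wdr12, 1.57 for Mrto4 and 0.91 for Ddx18. Without p21 the same probe sets gave 1.295, 1.13 and 0.70.

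Of the 3 synthesis enzymes, Cad and Srm rose without p53 and Odc1 did not pass in any background. Cad, which starts pyrimidine synthesis, measured 7.48 and 7.50 in CKIα KO/p53 KO, 7.49 and 8.0 in CKIα KO/p21 KO and 6.99 and 7.03 in CKIα KO, against 6.11 and 6.12 in CKIα Het/p53 KO, 6.71 and 6.49 in CKIα Het/p21 KO and 6.29 and 6.41 in CKIα Het. All 6 CKIα-deleted arrays exceeded all 6 Het arrays, and Cad had the smallest adjusted p of the set on average over the backgrounds (log2 1.06, SE 0.10, adjusted p = 0.00119 in limma). It was 2.59-fold higher without p53 (adjusted p = 0.00526) and 2.21-fold higher without p21 (adjusted p = 0.0276), and changed by 0.66 with both present (adjusted p = 0.257).

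Srm, the spermidine synthase, measured 7.92 and 7.66 in CKIα KO/p53 KO, 7.29 and 8.29 in CKIα KO/p21 KO and 6.86 and 6.93 in CKIα KO, against 5.88 and 6.50 in CKIα Het/p53 KO, 6.93 and 6.19 in CKIα Het/p21 KO and 6.58 and 6.10 in CKIα Het. It rose 3.02-fold without p53 (log2 1.60, SE 0.36, adjusted p = 0.0174 in limma) and missed the threshold without p21 (1.23, adjusted p = 0.0852). Odc1, which makes the polyamine precursor putrescine and is a long known Myc target, measured 9.62 and 9.70 in CKIα KO/p53 KO, 9.87 and 9.88 in CKIα KO/p21 KO and 9.12 and 9.64 in CKIα KO, against 9.71 and 9.55 in CKIα Het/p53 KO, 9.29 and 9.89 in CKIα Het/p21 KO and 9.70 and 9.52 in CKIα Het. Its groups overlapped throughout, with changes of 0.03 without p53 (SE 0.22, adjusted p = 0.943, and -0.12 after quantile normalization), 0.29 without p21 (adjusted p = 0.494) and -0.23 with both present (adjusted p = 0.837). A second Odc1 probe set gave -0.16, 0.32 and -0.26.

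**Figure D4:**
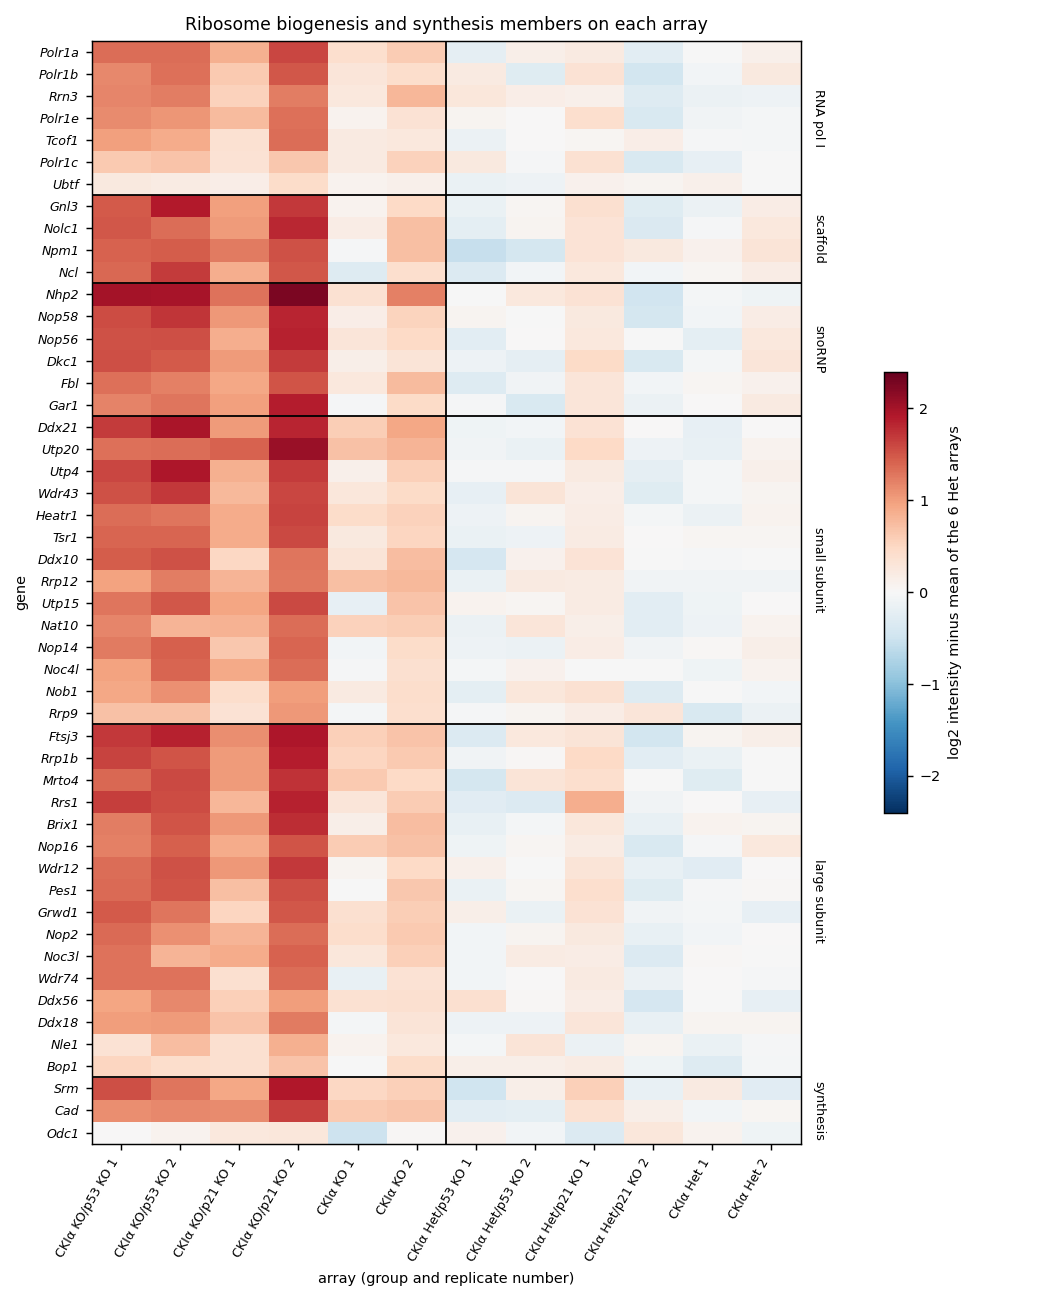
Log2 intensity of the 50 measured ribosome biogenesis and synthesis members (rows, by role group) on each of the 12 arrays (columns), relative to the mean of the 6 Het arrays. The CKIα KO/p53 KO and CKIα KO/p21 KO columns are high in nearly every row, and the Odc1 row has no such pattern. The CKIα KO replicate 2 column is intermediate, with a median of 0.55. The median of CKIα KO replicate 1, 0.23, is close to that of the highest Het array, CKIα Het/p21 KO replicate 1, at 0.26.

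Over the 50 biogenesis and synthesis members, the quartiles of the log2 fold change were 1.07 and 1.60 without p53, 0.91 and 1.28 without p21, and 0.27 and 0.55 with both genes present. The medians of the larger role groups without p53 were 1.00 in the RNA polymerase I group, 1.74 among scaffold and chaperone proteins, 1.64 among snoRNP proteins, 1.40 in the small subunit group and 1.37 in 60S assembly. The effects without p53 and without p21 correlated across these 50 genes at r = 0.77, beside 0.70 across all tested genes. The points share their arrays and genes are not independent replicates. The effect was the larger one without p53 for 42 of the 50 genes, against 7559 of all 16721. This order turned with the replicate: within number 1 the effect without p53 was the larger for 48 of the 50 genes (8166 of all 16721), and within number 2 for 7 of the 50 (7139 of all 16721). The medians over the 50 were 1.39 without p53 and 0.61 without p21 within number 1, and 1.38 and 1.68 within number 2.

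All 6 CKIα-deleted arrays lay above all 6 Het arrays for 19 of the 57 members, a pattern found in 3.74% of all tested genes. Besides Pvt1, Polr1a, Nhp2, Rrp12, Utp20, Ddx21, Nop2, Nop16, Ftsj3 and Cad, these were Tcof1, Nop56, Heatr1, Tsr1, Nat10, Noc3l, Rrp1b, Mrto4 and Grwd1. No member had all 6 CKIα-deleted arrays below all Het arrays. Array by array, 52 and 52 members exceeded all Het arrays on the CKIα KO/p53 KO arrays (28% and 29.4% of all tested genes), 50 and 52 on the CKIα KO/p21 KO arrays (19.1% and 28%), and 19 and 46 on the CKIα KO arrays (20.1% and 23.3%). The 2 CKIα KO arrays thus differed widely in this count.

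Whether the effect of CKIα loss differed between backgrounds was tested directly. The effect without p53 minus that with both genes present had a median of 0.95 (log2) over the members, beside -0.06 over all tested genes, and 33 of 57 had an unadjusted p under 0.05 (2485 of all 16721). None of the members was called by limma, beside 0.0179% of all tested genes. Ncl (1.79) and Npm1 (1.78) came nearest, both at an adjusted p of 0.17, and for Myc the difference was 1.88 (SE 0.78, adjusted p = 0.31). With either CKIα KO/p21 KO array left out, 6 members were called higher, beside 0.849% of all tested genes. The effect without p21 minus that with both present had a median of 0.74, beside -0.01 over all tested genes, with 22 members and 1359 of all tested genes at an unadjusted p under 0.05, and no gene in the whole table was called (0%).

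Among the CKIα-deleted groups themselves, 52 of 57 members were higher in CKIα KO/p53 KO than in CKIα KO, with a median of 0.89, and 53 were higher in CKIα KO/p21 KO than in CKIα KO, with a median of 0.82. These comparisons share the CKIα KO arrays. In CKIα KO/p21 KO against CKIα KO no member was called by limma, beside 0.0359% of all tested genes, but 37 were called higher without CKIα KO/p21 KO replicate 1, beside 4.55% of all tested genes. The median of CKIα KO/p53 KO over CKIα KO/p21 KO was 0.12 for the 50 biogenesis and synthesis members and 0.05 for Myc, and Pvt1 was the called member, in the lower direction, with 0.215% of all tested genes called lower. Without CKIα KO/p21 KO replicate 1 the median of the 50 was -0.22, with 7 of them above 0, and without replicate 2 it was 0.47, so the direction between the double knockouts turned with 1 array. The Pvt1 call was lost without either CKIα KO/p53 KO array, without CKIα KO/p21 KO replicate 2 and without any 1 Het array.

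In the presence of 1 working CKIα copy, loss of p53 or p21 went with no call among the members. In CKIα Het/p53 KO against CKIα Het the members' median was -0.03, 1 member had an unadjusted p under 0.05, and limma called none, with 0% called among all tested genes (941 at an unadjusted p under 0.05). In CKIα Het/p21 KO against CKIα Het the median was 0.04, no member had an unadjusted p under 0.05 (837 of all tested genes did), and 0.00598% of all tested genes were called. The double knockout levels described above were not seen on arrays with only p53 or p21 missing.

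Related genes outside the named set were counted in the same fits, from lists chosen with earlier results of these data known. Of all tested genes, 11% were called higher and 6.82% lower without p53, 1.46% higher without p21 and 15.5% higher on average. Of 68 measured other ribosome biogenesis genes, 48 were called higher without p53, 16 without p21, 0 with both present (9 at an unadjusted p under 0.05 in limma) and 57 on average, with medians of 0.89, 0.74, 0.26 and 0.62. Mybbp1a, a nucleolar Myb-binding protein, rose by 1.72 without p53 and 1.27 without p21, and Bysl (bystin), of 40S maturation, by 1.05 and 1.22. Taf1d, a subunit of the RNA polymerase I selectivity factor, had similar changes without p53 (0.86, adjusted p = 0.00797) and with both genes present (0.80, adjusted p = 0.1). Of 54 measured cytosolic ribosomal proteins, 39 rose without p53 and 2, Rplp2 (1.27) and Rpl30 (0.77), without p21, with medians of 0.93, 0.73 and 0.18 in the 3 backgrounds.

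RNA polymerase III, which makes 5S ribosomal RNA and transfer RNA, had 6 of 18 measured genes called higher without p53, none without p21 (8 at an unadjusted p under 0.05 in limma) and 10 on average, with medians of 0.37, 0.42 and 0.06 in the 3 backgrounds. In nucleotide and polyamine synthesis beyond Cad, Srm and Odc1, 11 of 17 measured genes rose without p53 and 3 without p21. Smox, the spermine oxidase, was higher by 1.73 without p53 (adjusted p = 0.00507), 0.41 without p21 (adjusted p = 0.259) and 1.31 with both present (adjusted p = 0.0972). Of 12 other Max network genes, 4 rose and 2 fell without p53, where 11% of all tested genes were called higher and 6.82% lower. Those that rose were Ruvbl1 (1.52), Wdr5 (0.99), Ruvbl2 (0.78) and Mga (0.57). Of 21 other classical Myc targets, 14 rose and 1 fell without p53, led by Ccnd2, cyclin D2, at 2.05 and Mthfd1l at 1.76, and 4 rose without p21.

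Markers of dividing cells moved with the members in the double knockouts. Their summed intensity over 11 of 12 listed markers was 4690 to 5095 in CKIα KO/p53 KO, 3605 to 6622 in CKIα KO/p21 KO and 2204 to 2353 in CKIα KO, against 2112 to 2424 in CKIα Het/p53 KO, 2159 to 2698 in CKIα Het/p21 KO and 2143 to 2586 in CKIα Het. All 11 rose without p53 and 3 without p21, with medians of 1.09 and 1.03. The shares of all tested genes called higher were 11% without p53 and 1.46% without p21. The part of dividing cells in the members' rise was not tested. In CKIα KO against CKIα Het the dividing-cell markers had a median of -0.02 with 5 of 11 above 0. Of the 50 biogenesis and synthesis members, 48 lay above 0 with a median of 0.39 (all tested genes: 53.9% above 0, median 0.02). With CKIα KO replicate 2 left out, 41 of the 50 lay above 0, with a median of 0.23. Neither list had a called gene by limma (0 of 11 markers and 12 of 50 members at an unadjusted p under 0.05).

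Markers of other cells moved as well. Over all tested genes, 6.82% were called lower and 11% higher without p53, and 1.46% higher without p21. Genes called lower were fewer still without p21, where 73.9% of all called genes were higher. The enterocyte sums were 49170 to 53900 in CKIα KO/p53 KO, 43130 to 73180 in CKIα KO/p21 KO and 65840 to 69910 in CKIα KO, against 83480 to 87570 in CKIα Het/p53 KO, 72310 to 78470 in CKIα Het/p21 KO and 69650 to 82670 in CKIα Het, and 5 of 12 markers fell without p53. Goblet cell sums over 7 of 8 markers were 6874 to 9072 in CKIα KO/p53 KO, 7886 to 16420 in CKIα KO/p21 KO and 13300 to 19910 in CKIα KO, against 20870 to 21000 in CKIα Het/p53 KO, 27890 to 30520 in CKIα Het/p21 KO and 26610 to 28910 in CKIα Het. Enteroendocrine sums over 8 markers were 434.3 to 521.4 in CKIα KO/p53 KO, 318.4 to 713.3 in CKIα KO/p21 KO and 801.5 to 1359 in CKIα KO, against 1505 to 1656 in CKIα Het/p53 KO, 1551 to 1615 in CKIα Het/p21 KO and 2334 to 2711 in CKIα Het. Neither the goblet nor the enteroendocrine sums overlapped between a CKIα-deleted group and its Het counterpart. Of the 8 enteroendocrine markers, 5 fell without p53 and 3 without p21, and limma called none with both genes present (4 at an unadjusted p under 0.05). Chga, the secretory granule protein chromogranin A, fell by 1.40 without p53 and by 1.45 without p21. Of 10 crypt base stem cell markers, 5 rose without p53 and 2 without p21, and their sums were 3277 to 4414 in CKIα KO/p53 KO, 3582 to 4445 in CKIα KO/p21 KO and 2041 to 3010 in CKIα KO, against 2738 to 2906 in CKIα Het/p53 KO, 1784 to 3614 in CKIα Het/p21 KO and 3555 to 3843 in CKIα Het. Lymphocyte sums over 10 of 11 markers ran from 1306 on CKIα KO/p21 KO replicate 2 to 8993 on CKIα Het/p21 KO replicate 2. Sums of 8 fibroblast and smooth muscle markers ran from 310.2 to 1775, with their extremes on the same 2 arrays. Tuft cell sums over 6 markers were 378 to 431.1 in CKIα KO/p53 KO, against 173.7 to 264.5 on the arrays of the other groups. Paneth cell sums over 5 of 6 markers were 11590 to 12090 in CKIα KO/p53 KO, against 7938 to 8651 in CKIα Het/p53 KO. In the other backgrounds the Paneth sums of the CKIα-deleted group and its Het counterpart overlapped. The part of these cell types in the members' differences was not tested.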

How the data were processed

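Per the labels' protocols, RNA of 2 biological replicates per group was hybridized to Affymetrix arrays, intensities were extracted with Expression Console 1.1 by the RMA Sketch method, and the data were then normalized on median intensities. The numbers in the deposited table are log2 values, a base taken from their range since the labels do not state it. Each of 13 columns belongs to 1 array of the series, and no depth applies: the number of arrays limits the precision. Probe sets were named from the platform annotation (21789 with 1 symbol, 1621 with several, 12146 with none). For each gene the single-symbol probe set with the highest mean was used, and genes above their array's 25th percentile on at least 2 arrays were tested.

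The 12 consistently labelled arrays entered 1 linear model per gene (limma 3.58.1, R 4.3.3) with a mean for each group and 6 residual degrees of freedom, and p-values of 11 two-sided comparisons were adjusted over all 16721 tested genes. One array, titled CKIα KO/p53 KO but labelled with the CKI knockout alone, was left out. In data simulated for CKIα KO/p53 KO against CKIα Het/p53 KO with 200 of 16721 genes changed, the test recovered 58.5% of changes of log2 1 and 92.6% of changes of log2 2, and 4.6% of its calls were false. The measured comparison called 1841 genes higher and 1140 lower. These rates belong to the simulated setting, which had far fewer changed genes, and need not hold for the measured one. Alternatives were no filter, quantile normalization, centring on the array median, an intensity trend, array weights, the replicate number as a block, the mean of a gene's probe sets, and leaving out each array.

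The members, role groups and lists were chosen with earlier results of these data known. Per-array values are given for the Myc and Max network, for the 3 members of each other role group with the smallest p of the average effect, and for extreme called members. Other lists name up to 4 genes by the same p. Promoters came from RefSeq (GRCm38.p6). Marker sums add intensities on the linear scale.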

Additional observations from a re-analysis of the deposited data

Results flagged for a closer look

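The array that entered no comparison, because its title names a CKIα KO/p53 KO mouse and its genotype and source labels a CKI knockout alone, carried a signal in the same genes. The median of the 57 members on it was 1.01 (log2) above the mean of the 6 Het arrays, beside -0.03 for all tested genes, and 51 members exceeded all 6 Het arrays, as did 21.5% of all tested genes. This lies between the values of the CKIα KO/p21 KO arrays (0.85 and 1.50), below the CKIα KO/p53 KO arrays (1.31 and 1.33) and above the CKIα KO arrays (0.22 and 0.54). On it Myc measured 9.05, Pvt1 6.07, Mycl 6.49, Max 9.82 and Mxd1 10.2. No group was given to this array from these values.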

How the results depend on the processing

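For the average effect, 53 of 53 calls were kept under no filter, quantile normalization, centring, the intensity trend, array weights, the replicate block and the mean of probe sets, and its count of higher members ran from 47 to 52 with 1 array left out (lower, 1 to 3). Without p53, the count of higher members was 0 to 47 and of lower members 0 to 2 with 1 array left out, and the members' mean array median of CKIα KO/p53 KO was 1.20 after quantile normalization and 1.36 after centring. Without p21, 9 members were called higher with no filter, 16 after quantile normalization, 3 after centring and 7 with array weights, and 0 to 49 with 1 array left out (lower, 0 to 3). For CKIα KO/p53 KO against CKIα KO the higher count was 0 with no filter, after centring and with array weights, 2 after quantile normalization and 0 to 34 with 1 array left out (lower, 0 to 2). The Pvt1 call between the double knockouts was lost (0 lower members) after quantile normalization, after centring and with the mean of probe sets, with 0 to 1 higher and 0 to 1 lower members when 1 array was left out. CKIα KO/p21 KO against CKIα KO ranged from 0 to 37 higher and 0 to 2 lower, and the difference of effects without p53 from 0 to 6 higher. The cause of these shifts was not tested.

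With the replicate number as a block, 8 members were called higher in CKIα KO/p53 KO against CKIα KO, Ncl among them, 20 of the 25 calls without p21 were kept, and no other count moved by over 1.5 times. The numbers were not taken as pairing the arrays: deviations of same-numbered arrays correlated at over 0.1 in 5 of 15 pairs of groups, from -0.162 to 0.248.

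Without CKIα KO/p21 KO replicate 1, 23 of 57 members kept their sign between the double knockouts, and 49 without replicate 2. With CKIα KO replicate 2 left out, 47 kept it in CKIα KO against CKIα Het, and with CKIα KO/p21 KO replicate 2 left out, 46 in the difference of effects without p21. In the Het comparisons at least 36 did. Among the members with per-array values, in the 3 CKIα effects and their average, signs turned only where no call was made. Odc1 without p53 was -0.12 after quantile normalization, -0.07 with the mean of probe sets and -0.06 to 0.11 with 1 array left out, without p21 -0.01 to 0.59, with both genes present -0.49 to 0.03, and on average -0.08, 0 and -0.07 to 0.13 under the same settings. With both genes present, Mycl was -0.05 after quantile normalization, -0.02 after centring and -0.23 to 0.28 with 1 array left out. The ranges there with 1 array left out were -0.38 to 1.66 for Myc, -0.24 to 0.05 for Mycn, -0.20 to 0.02 for Mxd4, -0.23 to 0.51 for Npm1 and -0.42 to 0.29 for Ncl.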
